A study of Mus musculus with 4 samples.

Results

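The immunoglobulin genes encode the heavy and light chains of antibodies, and 71 of the 12422 probe sets tested on the array were assigned to them. Members were taken by gene symbol from the platform annotation, as probe sets with any listed symbol of a heavy chain variable or constant gene (Ighv, Igha, Ighg, Ighm, Ighd), a kappa gene (Igkv, Igkj, Igkc) or a lambda gene (Iglv, Iglc). The 71 probe sets comprised 30 that list a heavy chain constant gene, 6 that list heavy chain variable genes alone, 33 for kappa and 2 for lambda light chains.

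The samples were RNA of skeletal muscle, gastrocnemius with soleus, from male Crhr2-/- mice (KO), which lack a receptor for the stress peptide corticotropin-releasing factor and the urocortins, and from Crhr2+/+ littermates (WT). All mice were 6.5 months old, untreated and on a mixed C57BL/6 and 129 background. Each genotype had 4 mice, pooled in pairs into 2 RNA pools, and an Affymetrix U74Av2 array, on which several short probes make up a probe set, was used for each pool. A value of 1 array is therefore the average of 2 mice, and the 2 arrays per genotype limit the precision. The allele is not described further in the labels. All levels below are intensities, given as pool 1 and pool 2 of each genotype.

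An antibody is built from paired heavy and light chains. In developing B cells, variable, diversity and joining segments of the heavy chain locus and variable and joining segments of a light chain locus are recombined, so that each B cell transcribes its own variable region in front of a shared constant region. The constant gene of the heavy chain sets the antibody class: Ighm encodes the mu chain of IgM, Ighd the delta chain of IgD, Ighg3 the gamma chain of IgG3, and Igha the alpha chain of IgA. Most mouse antibodies carry kappa light chains and few carry lambda. B cells display antibody as a receptor, and plasma cells secrete it and hold very large amounts of its mRNA. Muscle fibres are not a known source of these transcripts, and whole muscle also contains vessels, connective tissue and immune cells. In such a mixture fewer antibody-making cells and less immunoglobulin RNA per cell cannot be told apart.

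The arrays were close to each other in overall signal. Array medians were 67.6 and 71.2 in KO and 69.2 and 68.4 in WT, in arbitrary units of intensity, and the trimmed mean was 200.2 on every array. The actin control, whose 3' to 5' signal ratio reflects RNA quality, had ratios of 0.729 and 0.866 in KO and 0.624 and 0.686 in WT. Skeletal muscle genes were bright on all arrays, and the myosin light chain Myl1 read 20930 and 25051 in KO and 23984 and 21523 in WT. The brighter probe set for Crhr2 read 100.4 and 75.1 in KO and 154 and 192 in WT, below both WT pools in both KO pools (log2 fold change -0.88 ± 0.25, limma adjusted p = 0.803). The dimmer one read 36.7 and 22.7 in KO and 18.8 and 45.3 in WT, with overlap (-0.03 ± 0.43), so that only the brighter probe set of the targeted gene separated the genotypes. Some pools stood apart in genes of other organs. Exocrine pancreas genes had a median deviation from the mean of the 4 arrays of 1.86 in KO pool 1 and 0.05 in KO pool 2, against -0.96 and -0.94 in WT pools 1 and 2, on the log2 scale. Liver genes had -0.46 and -0.16 in KO pools 1 and 2, against 0.02 and 0.80 in WT pools 1 and 2.

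Immunoglobulin signal was not shown to differ between KO and WT muscle, and it differed more between the WT pools than between genotypes. WT pool 1 was the highest array for 40 of the 71 probe sets and WT pool 2 the lowest for 42, and both KO pools lay between the WT pools for 30. Over all 12422 probe sets these patterns were met by 23.6%, 24.1% and 15.3%. The kappa probe set 93086_at, which lists the constant gene Igkc, read 4578 and 8152 in KO and 8548 and 616 in WT. No immunoglobulin probe set passed the test (0 of 71, limma, adjusted p under 0.05), as was the case for 0% of all probe sets.

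**Figure D1:**
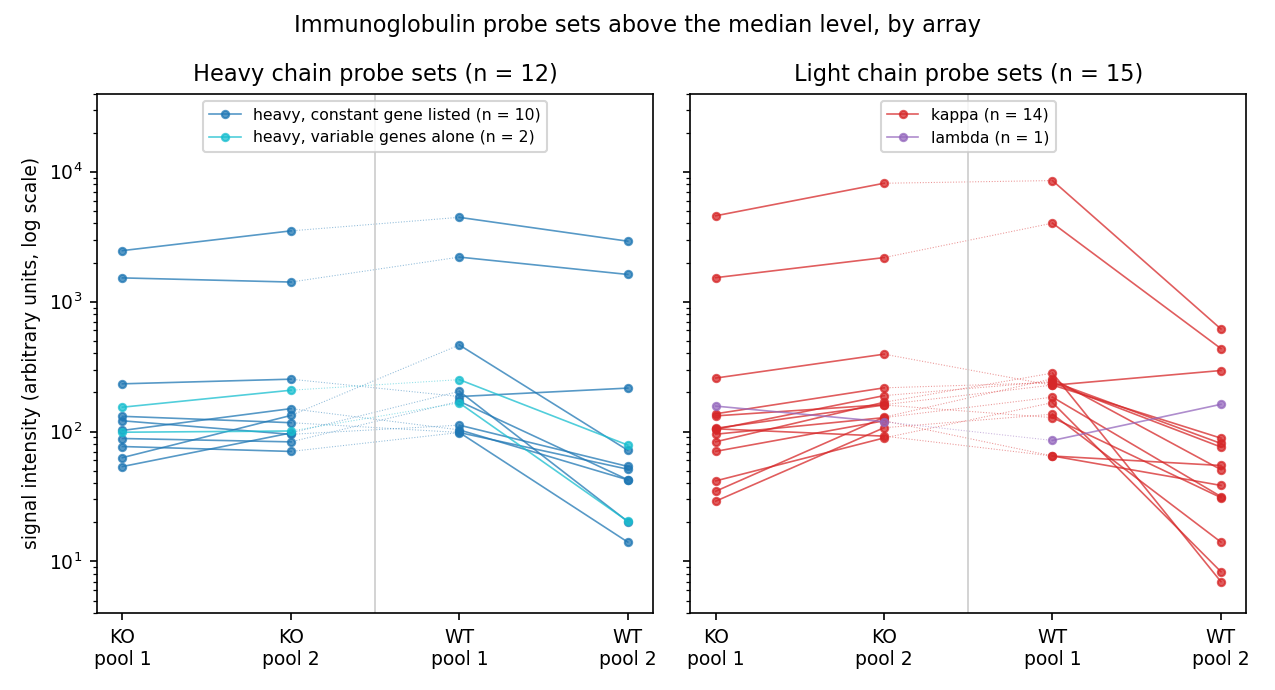
Signal intensity (arbitrary units, log axis) of the 27 immunoglobulin probe sets above the median level on each array, with KO pools on the left and WT pools on the right. Each line is 1 probe set, solid within a genotype and dotted between genotypes. Most lines are high in WT pool 1 and low in WT pool 2, with KO pools between them.

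Of the 71 probe sets, 27 had a mean over the 4 arrays above that of the median probe set (68.7), and 44 did not. The 27 are given with their values below, and the means of the 44 ran from 4.06 to 66.9. Of those 44, 22 were higher and 22 lower in KO. Their log2 fold changes ran from -1.57 to 0.78 (median 0.01). Detection calls were not used here, so that a low value is a low reading and not a proof of absence. The annotation is coarse. Only 37 distinct annotation entries covered the 71 probe sets, 59 probe sets list 1 symbol and 12 list several, and Ighm is listed by 19 whose means ran from 6.15 to 3338. Probe sets of one family can share signal from related variable regions, so they are not independent measurements. Of the 71, 32 (45.1%) carry the suffix f, with which the manufacturer marks probes shared by a sequence family, against 8.65% of all probe sets.

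Among heavy chain constant genes, the probe sets for Ighm did not act alike. The probe set 93583_s_at read 2470 and 3505 in KO and 4455 and 2919 in WT, and 93584_at read 1523 and 1415 in KO and 2202 and 1619 in WT. Both were bright in every pool, WT pool 1 was again the highest, and the KO pools lay below both WT pools for 93584_at alone. Their log2 fold changes were -0.29 ± 0.24 and -0.36 ± 0.16 (SE; limma adjusted p = 0.908 for both), and that of 93584_at was -0.14 without WT pool 1.

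The other Ighm probe sets among the 27 varied more between WT pools. The probe set 101870_at read 63.0 and 133 in KO and 464 and 71.8 in WT, so that 1 of the 4 pools stood apart from the others (log2 fold change -0.93 ± 0.78). The family probe set 100362_f_at read 53.8 and 97.5 in KO and 204 and 20.3 in WT, with both KO pools inside the WT range (0.01 ± 0.83). The probe set 92470_f_at, which also lists the variable genes Ighv1-53 and Ighv1-72, read 88.4 and 83.3 in KO and 171 and 42.6 in WT (-0.04 ± 0.55). The probe set 101346_at read 76.7 and 70.3 in KO and 98.3 and 51.3 in WT (0.03 ± 0.36). In the last 3 of these both KO pools lay between the WT pools.

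A probe set annotated as Igha, the heavy chain gene of mucosal antibody, had the largest positive log2 fold change among heavy chain probe sets in this fit. This probe set, 100583_at, read 131 and 117 in KO and 98.4 and 14.1 in WT, with both KO pools above both WT pools. The log2 fold change of 1.30 ± 0.64 did not pass (limma adjusted p = 0.908), and without WT pool 2 it was 0.29. The same target sequence is read by 92740_at, annotated as Ighv14-2, which had 54.2 and 68.9 in KO and 80.9 and 18.2 in WT, so that the KO pools overlapped the WT pools there. The dim 92741_g_at, also annotated as Ighv14-2, read 41.7 and 37.9 in KO and 36.7 and 40.5 in WT (0.03 ± 0.34), with overlap. Which of these genes gave the signal cannot be told from the annotation. The other probe sets that list Igha alone were dim and disagreed in sign. The probe set 161486_f_at read 5.57 and 5.06 in KO and 18.9 and 21.7 in WT (-0.83 ± 0.24, limma adjusted p = 0.803), below WT in both KO pools. The probe set 97009_f_at read 5.52 and 15.1 in KO and 4.85 and 6.73 in WT.

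The probe sets above the median level that list Ighg3 alone or Ighd were lowest in WT pool 2. The Ighg3 probe set 102721_at read 102 and 150.1 in KO and 103 and 42.5 in WT (log2 fold change 0.76 ± 0.41, and 0.24 without WT pool 2). A second probe set of the same target sequence, 102722_g_at, read 64.0 and 105 in KO and 62.1 and 35.4 in WT (0.65 ± 0.39). The KO pools of the second lay above both WT pools, and those of the first did not. The Ighd probe set 101157_at read 121 and 95.2 in KO and 112 and 53.9 in WT (0.39 ± 0.37). A probe set that lists Ighv14-2, Ighg3, Igha and Ighm together, 99421_at, read 233 and 253 in KO and 186 and 216 in WT (0.26 ± 0.17), with both KO pools above both WT pools and WT pool 1 the lowest array. Over the 30 probe sets with a constant gene, 16 were higher and 14 lower in KO, and the median log2 fold change was 0.02, where it was 0.00 over all probe sets. Without WT pool 1 the median of the 30 was 0.37, and without WT pool 2 it was -0.57.

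Heavy chain variable genes, which carry most of the antigen contact, were read by 6 probe sets with no constant gene listed. Ighv5-12 (98765_f_at) read 154 and 208 in KO and 251 and 78.7 in WT (log2 fold change 0.30 ± 0.48). Ighv1-54 (97563_f_at) read 98.8 and 101 in KO and 166 and 20.4 in WT (0.53 ± 0.73). In both, the KO pools lay between a high WT pool 1 and a low WT pool 2. The median log2 fold change of the 6 was 0.28, with 5 higher and 1 lower in KO, and their median difference between WT pools 1 and 2 was 1.51 on the log2 scale.

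Among the 27, the 3 widest ratios between WT pools belonged to the kappa light chain probe sets 101331_f_at (40.4), 100682_f_at (20) and 93086_at (13.9). The probe set 93086_at, which lists Igkc, Igkj1 and 3 variable genes, read 13.9 times higher in WT pool 1 than in WT pool 2, with a log2 fold change of 1.40 ± 1.10 (limma adjusted p = 0.908). Igkv6-23 (102156_f_at) read 1529 and 2183 in KO and 4020 and 435 in WT (0.45 ± 0.92). Both genotypes overlapped in each of these, because WT pool 1 exceeded the KO pools and WT pool 2 fell below them. Igkv6-14 (101331_f_at) read 83.4 and 168 in KO and 282 and 6.99 in WT, the steepest ratio between WT pools among the 27, at 40.4 on linear intensities, one of them a very dim reading.

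Most probe sets of the Igkv4 family among the 27, some with Igkc listed beside them, were also highest in WT pool 1, and Igkv4-68 (102076_at) was not. The probe set 102585_f_at (Igkv4-59, Igkv4-70, Igkc) read 137 and 217 in KO and 238 and 76.0 in WT, and 97567_f_at, which adds Igkv4-72 and Igkv4-68, read 104 and 189 in KO and 243 and 81.0 in WT. The probe set 101640_f_at (Igkv4-59, Igkv4-72, Igkc) read 34.7 and 129 in KO and 255 and 50.9 in WT, with KO pool 1 the lowest of the 4. Their log2 fold changes were 0.31 ± 0.49, -0.02 ± 0.50 and -0.66 ± 0.77. All 3 list several genes, and any of these could give the signal. Igkv4-91 (94725_f_at) read 132 and 161 in KO and 228 and 89.0 in WT, Igkv4-70 (101718_f_at) read 95.4 and 128 in KO and 184 and 31.6 in WT, and Igkv4-59 (101751_f_at) read 29.1 and 107 in KO and 136 and 14.1 in WT. In each, WT pool 1 was the highest array and WT pool 2 the lowest, with log2 fold changes of 0.02 ± 0.41, 0.39 ± 0.66 and 0.16 ± 0.87.

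Other kappa probe sets read higher in KO than in WT on average, some without overlap. Igkv4-68 read 70.4 and 121 in KO and 64.9 and 38.5 in WT (log2 fold change 0.73 ± 0.39). Igkv7-33 (97570_at) read 105 and 92.2 in KO and 64.8 and 54.8 in WT (0.61 ± 0.29). In both, the KO pools lay above both WT pools, and neither passed (limma adjusted p = 0.908 for both). Igkv8-19 (93227_f_at) read 106 and 160.1 in KO and 128 and 31.0 in WT (0.85 ± 0.55), where the groups overlap. Without WT pool 2 its log2 fold change was 0.02, and without WT pool 1 it was 1.68.

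The probe sets of Igkv14-111 disagreed. The family probe set 100682_f_at read 41.7 and 89.3 in KO and 167 and 8.34 in WT (log2 fold change 0.25 ± 0.95), with the KO pools inside the WT range. The probe set 100683_r_at, of the same target sequence, read 258 and 394 in KO and 227 and 295 in WT (0.29 ± 0.24). The KO pools of the second overlapped the WT pools, and WT pool 1 was its lowest array. The dim Igkv16-104 probe set 101616_at, which also lists Igk, read 17.0 and 17.1 in KO and 106 and 57.5 in WT, with both KO pools below both WT pools. Its log2 fold change of -1.57 ± 0.40 had the smallest unadjusted p of the 71 (0.00681) and did not pass (limma adjusted p = 0.803).

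Lambda light chains were read by 2 probe sets that did not share a pattern. Iglc1 (93639_r_at) read 157 and 119 in KO and 85.4 and 162 in WT (log2 fold change 0.19 ± 0.33), with WT pool 2 the highest. The probe set 93638_s_at (Iglc1, Iglv1) was dimmer, at 14.6 and 39.7 in KO and 76.2 and 5.20 in WT (-0.09 ± 0.76), with WT pool 1 the highest and WT pool 2 the lowest.

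**Figure D2:**
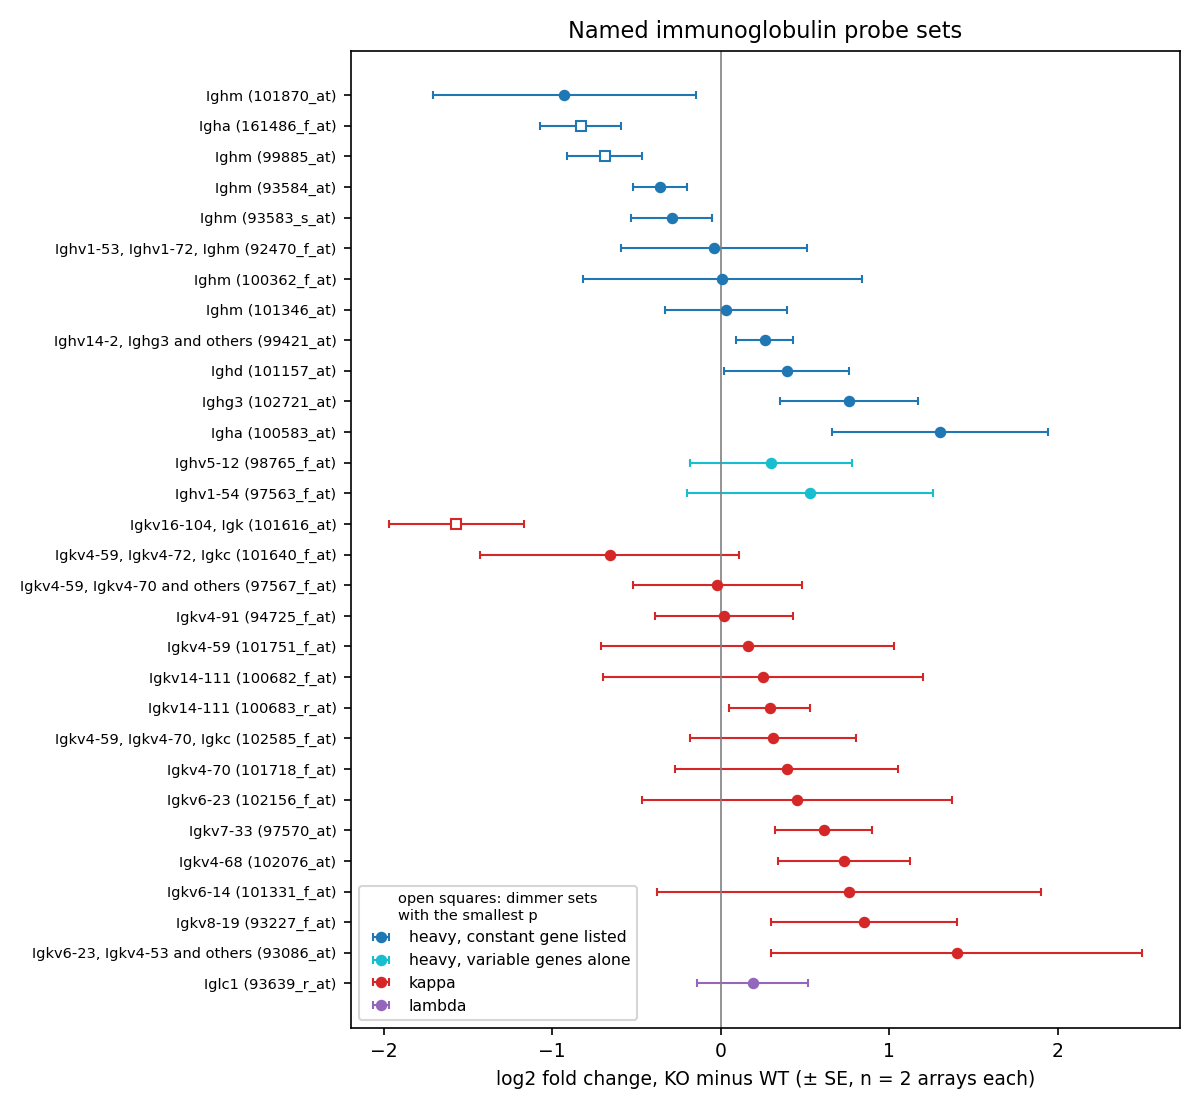
Log2 fold change, KO minus WT, with its standard error, of the 30 named immunoglobulin probe sets, grouped by chain (2 arrays per genotype). Filled points are the 27 above the median level and open squares the 3 dimmer ones with the smallest unadjusted p, all 3 of them lower in KO.

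Taking the members together, 43 were higher and 28 lower in KO on average, against 50% of all probe sets higher, and the median log2 fold change was 0.16 for the 71 and 0.00 for all probe sets. Among the 27 above the median level, 21 were higher in KO, against 48.5% of all probe sets above that level, with medians of 0.29 and -0.01. Both KO pools lay above both WT pools in 9 of 71 (12.7%, against 17% of all probe sets) and below them in 7 of 71 (9.86%, against 17.6%). At an unadjusted p under 0.05 there were 0 higher and 3 lower immunoglobulin probe sets, where 2.57% and 2.86% of all probe sets were higher and lower. The 3 were the Igkv16-104 set, the dim Igha set and 99885_at (Ighm), which read 3.88 and 3.23 in KO and 11.8 and 16.9 in WT (log2 fold change -0.69 ± 0.22, limma adjusted p = 0.830). A difference of at least 2-fold without overlap was found for 1 higher probe set, Igha 100583_at, and 1 lower, Igkv16-104, where 1.09% and 0.894% of all probe sets met that rule. An exact permutation test of a single probe set with 2 against 2 arrays cannot give a two-sided p below 0.333.

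The spread between pools of one genotype was wide in WT. WT pool 1 read at least 2-fold above WT pool 2 on the log2(intensity + 14) scale in 35 of 71 probe sets (49.3%), against 3.71% of all probe sets, and the reverse held in 2 of 71, against 3.15%. Among the 27 above the median level it was 18 (66.7%), against 1.82% of all probe sets above that level. The median absolute difference between the WT pools was 1.52 for those 27 and 0.19 for all probe sets above the median level, on the log2 scale. Between the KO pools it was 0.50 and 0.20, and between the genotype means 0.36 and 0.15. KO pool 2 read at least 2-fold above KO pool 1 in 11 of 71 (against 4.07% of all) and in 2 of the 27 (against 1.32%), and the reverse held in 1 of 71 (against 2.73%).

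**Figure D3:**
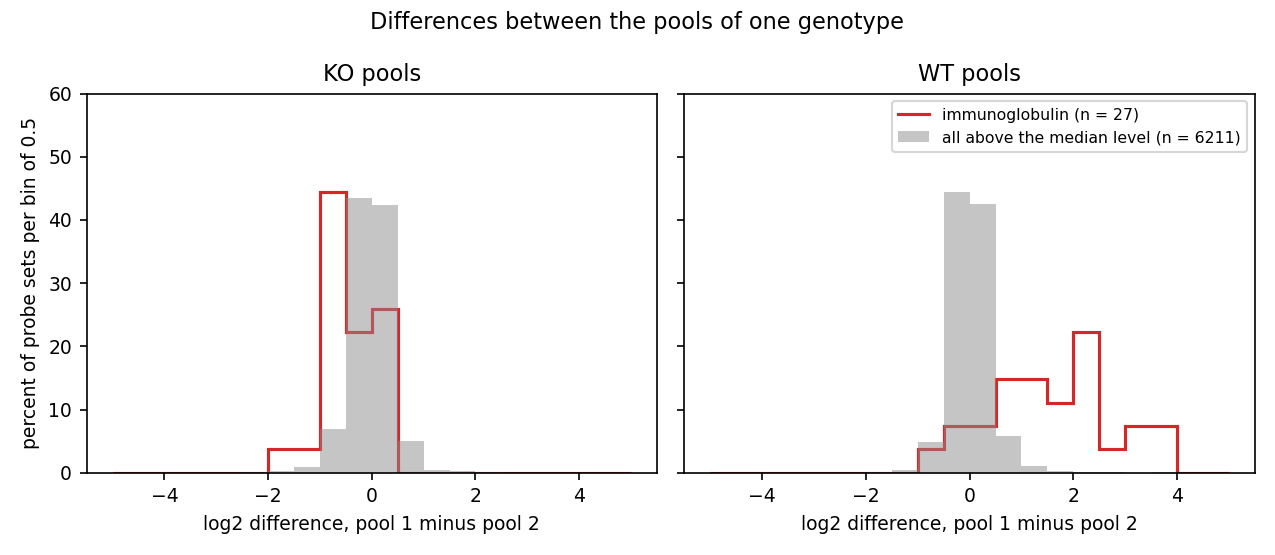
Difference between pool 1 and pool 2 of each genotype (log2 scale, bins of 0.5) for the 27 immunoglobulin probe sets above the median level (red line) and all 6211 probe sets above it (grey), as a percent of each set. KO is on the left and WT on the right. The red line is shifted to positive differences in WT, with a median of 1.52, and lies slightly below 0 in KO, with a median of -0.50.

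One order of the 4 arrays recurred. From high to low it was WT pool 1, KO pool 2, KO pool 1 and WT pool 2, and 25 of the 71 probe sets showed it (35.2%), against 3.6% of all probe sets. Among the 27, WT pool 2 was the lowest array for 20 (against 24.6% of all probe sets above the median level) and both KO pools lay between the WT pools for 15 (against 15.1%). The order was found in 14 of 33 kappa, 7 of 30 heavy constant, 3 of 6 heavy variable and 1 of 2 lambda probe sets. It was found in 21 of the 32 probe sets with the suffix f, and in 5.49% of all probe sets with that suffix. Of the 31 without a letter in their suffix it was found in 3 (9.68%), against 3.52% of all such probe sets. Both KO pools lay between the WT pools in 23 of the 32, against 15.1% of all probe sets with the suffix f. Among the 31 they did so in 5 (16.1%), close to the 15.6% of all such probe sets. The wide difference between WT pools was also larger with the suffix f, with a median of 1.72 on the log2 scale over those 32, against 0.44 over the 31. Probe sets that share family probes read partly the same transcripts, so these counts do not stand for as many separate genes.

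The annotated genes of the members lie at 3 loci. In the mouse reference annotation the 10 listed heavy chain genes are on chromosome 12, the 22 kappa genes on chromosome 6 and the 2 lambda genes on chromosome 16. Crhr2 is also on chromosome 6, with 81 protein-coding genes between it and the kappa locus. The median log2 fold change was 0.21 for the 33 kappa probe sets on that chromosome and 0.02 and 0.28 for the heavy constant and heavy variable sets on another. The median difference between WT pools 1 and 2 was 1.23, 0.83 and 1.51 for these 3 groups. Whether strain-derived sequence near Crhr2 bears on the kappa probe sets was not tested.

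Of the genes that work with immunoglobulin chains, Jchain and Cd79b had the same order of arrays, and so did the antibody receptors Trim21, Fcgrt and Fcgr2b named below. Jchain, which joins IgM and IgA into polymers in plasma cells, read 203 and 273 in KO and 304 and 90.0 in WT (log2 fold change 0.46 ± 0.50), the order described above. Cd79a and Cd79b form the signalling part of the B cell receptor. Cd79a read 169 and 277 in KO and 190 and 62.2 in WT (0.89 ± 0.48, and 0.18 without WT pool 2), and Cd79b read 131 and 189 in KO and 192 and 87.3 in WT (0.25 ± 0.37). WT pool 2 was the lowest array for Jchain, Cd79a and Cd79b.

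The other B cell genes above the median level did not have that order, and below that level Cd22 and Cd72 alone had it. WT pool 2 was also the lowest array for Ms4a1, a B cell surface protein, at 144 and 149.8 in KO and 139 and 76.1 in WT. It was lowest for the tetraspanin Cd37, at 85.5 and 169 in KO and 152 and 49.5 in WT, for the B cell transcription factor Pax5, at 76.1 and 129 in KO and 113 and 54.5 in WT, and for the adaptor Blnk, at 68.1 and 98.0 in KO and 79.5 and 44.6 in WT. It was the highest for the transcription factor Spib, at 90.0 and 105 in KO and 88.6 and 137 in WT. The bright Cd24a, which other cell types express too, read 3583 and 2889 in KO and 3970 and 3249 in WT. Of 24 measured B lineage genes, 15 were higher and 9 lower in KO (median log2 fold change 0.27), and 0 passed the test. Their summed level was 4916 and 4687 in KO and 5658 and 4184 in WT, mostly Cd24a, and none was at 0. WT pool 2 was lowest for 11 of 24, against 24.1% of all probe sets.

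Genes of antibody folding and secretion, which other cells also use, differed less between the WT pools than Jchain, the remaining member of that list above the median level. The chaperone Hspa5 read 996 and 949.8 in KO and 1050 and 874 in WT, and Herpud1, of endoplasmic reticulum protein degradation, read 759 and 753 in KO and 779 and 829 in WT. Xbp1, the transcription factor of the unfolded protein response and of plasma cells, read 401 and 427 in KO and 540.4 and 502 in WT, with both KO pools below both WT pools (log2 fold change -0.32 ± 0.12, limma adjusted p = 0.862). Ell2, an elongation factor that favours secreted heavy chain mRNA, read 539 and 380.4 in KO and 513 and 443 in WT. The disulfide isomerases Txndc5 and Pdia4 read 321 and 286 (KO) and 330.5 and 282 (WT), and 162 and 178 (KO) and 197 and 209 (WT). Of the 14 measured genes 5 were higher and 9 lower in KO, with a median of -0.08, and 0 passed. Their summed level was 3612 and 3474 in KO and 3984 and 3473 in WT. WT pool 2 was the lowest array for 5 of 14, against 24.1% of all probe sets.

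**Figure D4:**
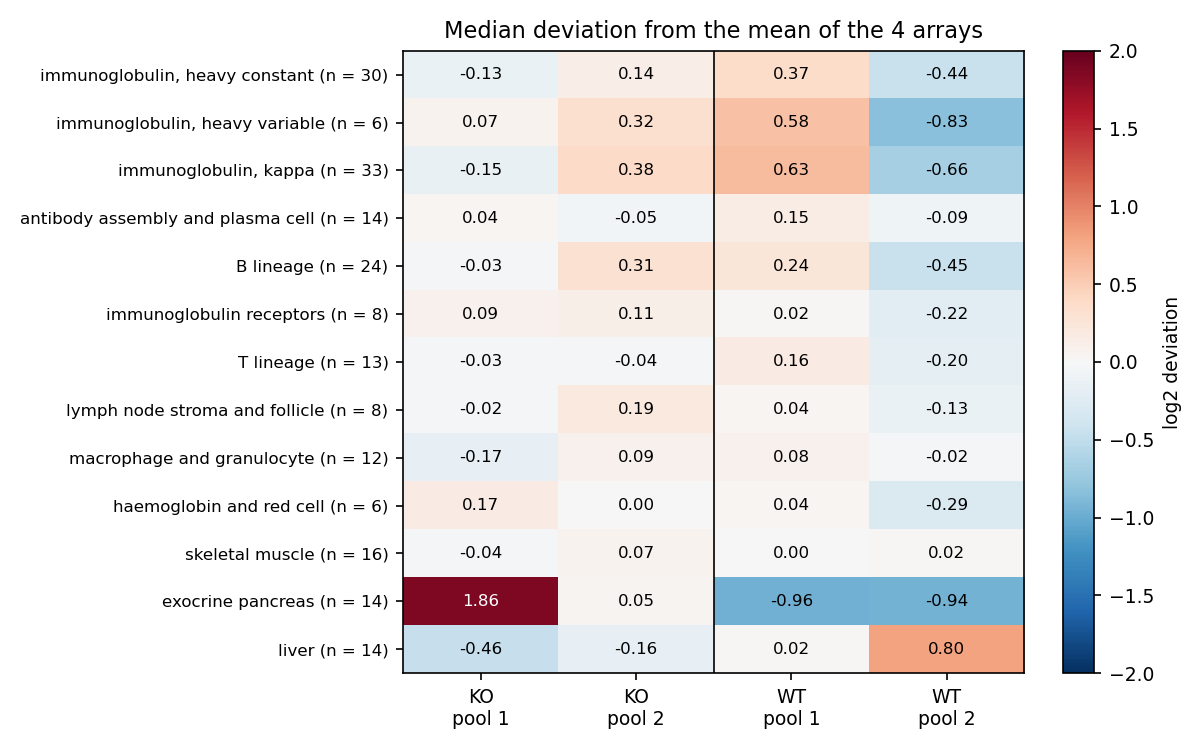
Median deviation of each gene group from the mean of the 4 arrays (log2 scale, colour and printed value), for the immunoglobulin groups and for 10 marker lists, with KO pools on the left and WT pools on the right. Kappa (-0.66), heavy variable (-0.83) and heavy constant (-0.44) probe sets and B lineage genes (-0.45) are lowest in WT pool 2. Red cell (-0.29), immunoglobulin receptor (-0.22), T lineage (-0.2), lymph node (-0.13) and antibody assembly (-0.09) genes are also lowest there. Skeletal muscle genes are near 0 on every array.

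Markers of other cells were summed on each array beside these results, and 0 genes of any list passed the test. Receptors and transporters of antibody were higher in KO in 6 of 8 cases (median log2 fold change 0.18), with summed levels of 682 and 659 in KO and 605 and 564 in WT. Among them Pigr, which carries IgA across epithelia, read 359 and 340.5 in KO and 294 and 341 in WT, and the IgG receptor Fcgr1 read 96.1 and 98.6 in KO and 96.4 and 75.3 in WT. Trim21 read 87 and 87.9 in KO and 91.3 and 56.2 in WT, in the array order of Jchain. The dimmer Fcgrt and Fcgr2b had that order too, and the others of this list did not. T lineage genes were 7 higher and 6 lower (median 0.04), with sums of 705 and 753 in KO and 804 and 596 in WT. Within them Cd4 read 131 and 118 in KO and 138 and 105 in WT, and Lat read 148 and 102 in KO and 75.6 and 106 in WT. The dimmer Cd3g alone of this list had the array order of Jchain, at 57.3 and 62.8 in KO and 117 and 33.5 in WT. Lymph node stroma and follicle genes were 5 higher and 3 lower (median 0.10), with sums of 1489 and 1753 in KO and 1706 and 1402 in WT. Most of that sum was Mfge8, at 1137 and 1260 in KO and 1289 and 1160 in WT, and the lymphotoxin Ltb read 149 and 229 in KO and 186 and 63.7 in WT. WT pool 2 thus had the lowest sum in all 3 of these lists.

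Macrophage and granulocyte genes were 6 higher and 6 lower (median 0.02), with sums of 1198 and 1477 in KO and 1468 and 1239 in WT. Csf1r read 265 and 333 in KO and 329 and 384 in WT, and Lyz2 read 302 and 242 in KO and 309 and 258 in WT. Ctss read 183 and 328 in KO and 369 and 98.8 in WT, and Cd68 read 108 and 113 in KO and 114 and 70.3 in WT. Both had the array order that recurred among immunoglobulin probe sets, and the others of this list did not. Haemoglobin and red cell genes, a measure of blood in the tissue, were higher in KO in 5 of 6 cases (median 0.31), with sums of 12346 and 9991 in KO and 9442 and 7570 in WT. Within them Hba-a1 read 8683 and 7747 in KO and 6645 and 5359 in WT, and Hbb-b2 read 2530 and 1311 in KO and 1749 and 1159 in WT. The summed level of blood markers, mostly Hba-a1, was thus highest in KO pool 1 and lowest in WT pool 2. By gene, WT pool 2 was the lowest array for 3 of the 6, against 24.1% of all probe sets. WT pool 1, the highest array for most immunoglobulin probe sets, was the highest for 0 of the 6, against 23.6% of all probe sets. With so few genes these counts are not a result about blood. Skeletal muscle genes were 10 higher and 6 lower (median 0.02), with sums of 151258 and 168371 in KO and 157956 and 155608 in WT, and Pvalb, a calcium buffer of fast fibres, read 19328 and 24527 in KO and 20966 and 19711 in WT.

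Among genes of other organs, pancreas genes stood out in KO pool 1 and most liver genes in WT pool 2, the pool in which most immunoglobulin probe sets were lowest. Exocrine pancreas genes were higher in KO in 14 of 14 cases (median 1.98) with sums of 14271 and 4324 in KO and 2018 and 1929 in WT, the protease precursors Ctrb1 and Prss2 reading 3467 and 1370 (KO) and 589 and 661 (WT), and 2639 and 477 (KO) and 242 and 168 (WT). KO pool 1, with the highest sum, was the highest array for 10 of the 71 immunoglobulin probe sets (14.1%), against 21.8% of all probe sets. Liver genes were lower in KO in 12 of 14 cases (median -0.63), with sums of 1984 and 1946 in KO and 3487 and 3195 in WT. WT pool 2 read above WT pool 1 in 10 of the 14, with a median difference between WT pools 1 and 2 of -0.82 on the log2 scale. Albumin (Alb) read 78.7 and 95.2 in KO and 230 and 1016 in WT. The 2 genes brightest on average, which make up most of the sum in every pool except WT pool 2, ran the other way between the WT pools. Of these Cyp2e1 read 1008 and 1095 in KO and 1484 and 563 in WT, and haptoglobin (Hp) read 758 and 547 in KO and 1505 and 934 in WT. The part of any of these cell types in the immunoglobulin values was not tested.

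The direction of the median immunoglobulin difference depended on which WT pool was used, most clearly for family probe sets. Without WT pool 1, 54 of the 71 probe sets were higher in KO and the median log2 fold change was 0.65. Without WT pool 2, 48 of the 71 were lower and the median was -0.60. Among the 27 above the median level the medians were 1.02 and -0.58, while the median over all probe sets was 0.00 in both cases. The 32 probe sets with the suffix f had medians of 0.89 without WT pool 1 and -0.95 without WT pool 2. The 31 without a letter in their suffix had 0.31 and -0.05, and the 10 of these above the median level stayed above 0 (0.77 and 0.09). The 8 with other suffixes had 0.06 and 0.11. The B lineage list moved the same way, with medians of 0.72 without WT pool 1 and -0.19 without WT pool 2. Without KO pool 1 and without KO pool 2 the median over the 71 was 0.34 and -0.02. In each of these 4 fits 0 probe sets of the table passed (limma, adjusted p under 0.05).

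**Figure D5:**
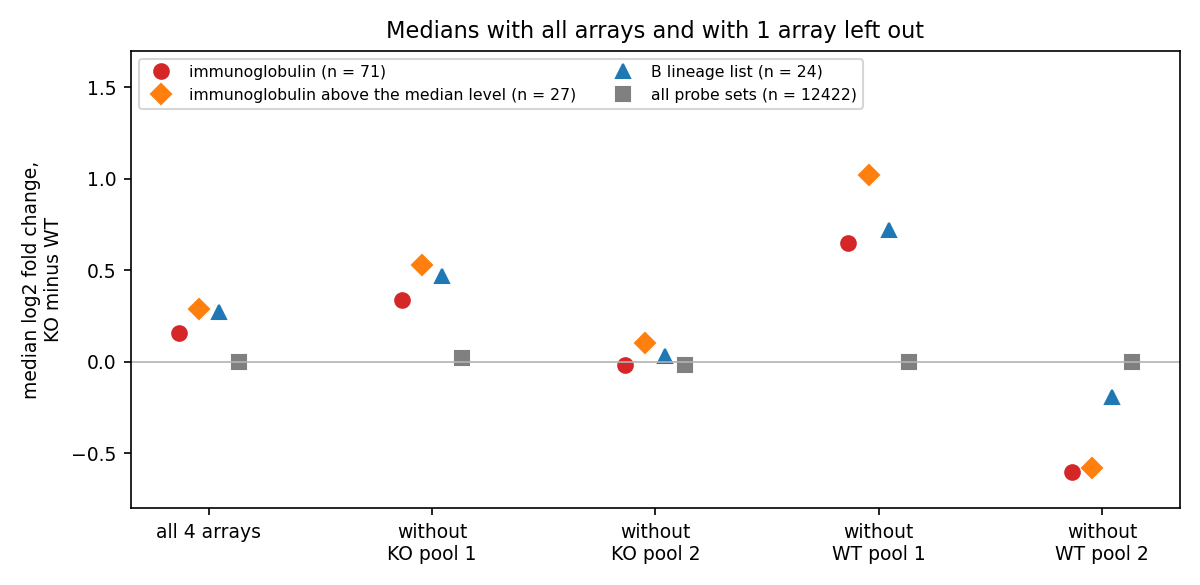
Median log2 fold change, KO minus WT, with all 4 arrays and with each array left out, for the 71 immunoglobulin probe sets, the 27 above the median level, 24 B lineage genes and all 12422 probe sets. The immunoglobulin medians are above 0 without WT pool 1 (0.65 and 1.02) and below 0 without WT pool 2 (-0.60 and -0.58), and all probe sets stay near 0.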

How the data were processed

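Affymetrix U74Av2 arrays were hybridised with biotin-labelled RNA of 2 KO and 2 WT pools, each of 2 mice, per the labels' protocols. The values deposited are linear intensities, 1 for every probe set on an array, scaled between arrays by the authors, as the equal trimmed means show. Which algorithm summarised the probes is not stated in the labels. Groups come from sample titles, because the genotype and tissue fields are exchanged. Leaving out 66 Affymetrix controls, 12422 probe sets were tested with no filter.

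A pseudocount of 14 (20% of the table median) was added before log2, which shrinks fold changes of dim probe sets. The genotype difference was tested by limma 3.58.1 under R 4.3.3 (lmFit, eBayes with trend), and p-values, two-sided, were adjusted by Benjamini-Hochberg across all probe sets, at a threshold of 0.05. Errors of fold changes are SE of that fit, and p-values measure spread between pools. The fit was tested on simulated data whose spread was set by level alone, without the wide WT pool differences of the members.

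The members and the 10 marker lists (129 of 166 genes measured, each by its brightest probe set) were chosen with earlier results of these data known. Immunoglobulin probe sets named are those above the median probe set and the 3 others with the smallest p. The sets 97009_f_at, 102722_g_at, 92740_at and 93638_s_at, and Alb, were chosen after their values were seen. Of each list the 2 brightest genes are named, and for the B lineage and plasma cell lists all above the median probe set. Names, chromosomes and neighbours come from the GRCm38.p6 gene table, where all 34 listed immunoglobulin genes were found. Alternatives were the pseudocount (56 and 3.5), a level filter, quantile normalization, no trend, a replicate block, leaving out each array, and 2 narrower definitions of the members.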

Additional observations from a re-analysis of the deposited data

How the results depend on the processing

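With 2 pools per genotype only large differences could be shown, and dim probe sets carry less information. No probe set passed in the reported fit (0 of 12422) or in any alternative, among them the one restricted to 6211 probe sets above the median (limma; 674 at an unadjusted p under 0.05 as reported, 3 of them immunoglobulin), and the smallest adjusted p of a named immunoglobulin probe set was 0.408. Equal replicate numbers did not pair the arrays (correlation of deviations 0.003), and with the replicate block 0 passed and 740 had an unadjusted p under 0.05. With only probe sets above the median 350 did. Without the trend 746 of the 12422 did. Among the 71 immunoglobulin probe sets 5 did with the block and 5 without the trend.

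Both KO pools lay above both WT pools in 9 members and below in 7. With only probe sets above the median these were 4 (14.8%, against 16.1% of all above it) and 1 (3.7%, against 19%). With 1 probe set per annotation entry they were 7 and 3, and the shares over all probe sets were not computed there. Leaving out 1 array, where the lone array is assumed to vary like the others, gave 15 to 43 and 10 to 42. With 2 arrays against 1, no overlap is more frequent, and the shares over all probe sets were 31.2% to 36.7% above and 32.8% to 35.3% below. Of the members, 60.6% lay above without WT pool 1 and 59.2% below without WT pool 2, against 32.9% and 32.8% of all probe sets. With 1 WT array left, these shares only restate how often it lay below or above both KO pools, and they add no separate evidence. With 1 array left out the median log2 fold change ran from -0.60 to 0.65 for all members, -0.57 to 0.37 for heavy constant, -0.40 to 0.90 for heavy variable and -0.67 to 0.71 for kappa probe sets. With 1 probe set per annotation entry the heavy constant median was 0.26. With the pseudocount raised 4 times the median was 0.01 for all members (38 higher and 33 lower) and -0.01 for kappa (16 higher and 17 lower), 94725_f_at was -0.01, 100362_f_at -0.12 and 100682_f_at -0.01.

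Of 30 named immunoglobulin probe sets 10 kept their sign in all alternatives and 20 changed it with 1 array left out. Their log2 fold changes then ran from -0.48 to 3.28 for 93086_at, -0.60 to 0.01 for 93583_s_at, -1.13 to 2.04 for 102156_f_at, -0.01 to 0.58 for 100683_r_at, -2.17 to 0.31 for 101870_at, -0.46 to 1.06 for 98765_f_at, -0.43 to 1.05 for 102585_f_at, -0.73 to 0.70 for 97567_f_at, -0.60 to 0.63 for 94725_f_at and -1.15 to 2.67 for 101331_f_at. They ran from -0.22 to 0.60 for 93639_r_at, -1.69 to 0.36 for 101640_f_at, -0.67 to 1.45 for 101718_f_at, -0.66 to 1.72 for 97563_f_at, -0.89 to 0.82 for 92470_f_at, -0.05 to 0.84 for 101157_at, -1.33 to 1.34 for 100362_f_at, -1.26 to 1.76 for 100682_f_at, -0.36 to 0.42 for 101346_at and -1.05 to 1.37 for 101751_f_at. Those that kept their sign ran from -0.58 to -0.14 for 93584_at, 0.16 to 0.36 for 99421_at, 0.02 to 1.68 for 93227_f_at, 0.24 to 1.29 for 102721_at, 0.29 to 2.30 for 100583_at, 0.51 to 0.71 for 97570_at, 0.39 to 1.07 for 102076_at, -1.95 to -1.20 for 101616_at, -0.89 to -0.77 for 161486_f_at and -0.82 to -0.56 for 99885_at. Among list genes, Cd79a ran from 0.18 to 1.60, Ms4a1 from 0.07 to 0.84 and Blnk from 0.04 to 0.71. List genes that changed sign were Hspa5 (-0.11 to 0.15), Ell2 (-0.32 to 0.17), Txndc5 (-0.12 to 0.10), Jchain (-0.35 to 1.26), Cd79b (-0.27 to 0.76), Cd37 (-0.29 to 1.09), Spib (-0.44 to 0.12) and Pax5 (-0.17 to 0.73). Leaving out an array changes both the mean and its error, and the cause of each change was not tested.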
